A study of Rattus norvegicus with 4 samples.

Results

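The genes described here are those of the insulin-like growth factor (IGF) axis in rat liver, taken as every probe whose gene symbol begins with Igf in the platform's probe table. That rule gave 13 of the 1936 probes on the array, and they measured 9 of 958 named genes. They were the growth factors Igf1 and Igf2, the acid-labile subunit Igfals, and the binding proteins Igfbp1, Igfbp2, Igfbp3, Igfbp4, Igfbp5 and Igfbp6. No member was lost to a filter, because every probe had a value on every array. The rule gave no probe of an IGF receptor, so the receptors were not analysed here. The rats were male Sprague-Dawley animals of 250 to 300 g with free access to food and water. In the ligation group the common bile duct was tied, and in the sham group it was exposed but not tied. Livers were taken 12 h after surgery. RNA of 3 rats was mixed into 1 pool per group, and both pools were labelled with Cy3 or Cy5 and hybridised together on each of 4 cDNA arrays.

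IGF1 is made mostly by hepatocytes under the control of growth hormone, which acts through its receptor, the kinase JAK2 and the transcription factor STAT5B. In blood, IGF1 travels largely in a ternary complex with IGFBP3 or IGFBP5 and the acid-labile subunit, which keeps it in the circulation. IGFBP1 is a small, quickly regulated binding protein of the hepatocyte whose gene is switched off by insulin. In the adult rat liver, IGFBP3 is made chiefly by non-parenchymal cells, and Igf2 is a gene of the fetal liver that is low in the adult.

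Each array gave 1 log ratio per probe, and no intensity. The values therefore compare the pools and carry no level of a transcript in either one. Cy5 marked the ligated pool on arrays 1 and 3, and Cy3 marked it on arrays 2 and 4. No source states the direction of the ratio. The labels list the ligated pool as channel 2 on every array, so ligation over sham was taken as the likely direction, with logarithms of base 2. The deposited medians were -1.26 and -0.96 on the Cy5 arrays and 0.43 and 0.26 on the Cy3 arrays, and each array was centred on its own median. Arrays of the same dye orientation correlated at r = 0.93 and 0.94 across probes, and arrays of opposite orientation at -0.28 to -0.45. Every gene was fitted with a ligation term, the mean over both orientations, and a dye term, the mean of the Cy5 arrays minus that of the Cy3 arrays, divided by 2. If the table were Cy5 over Cy3 instead, these terms would change places, so the dye term of each gene is also its ligation value under that reading. Since both pools may simply have been hybridised 4 times, p-values cover the spread between arrays and not that between animals. In bulk liver, fewer cells of a type and less RNA per cell cannot be told apart.

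Igfals was the 1 member of 9 that passed the test, and read as ligation over sham it was lower in the ligated pool. With limma's Benjamini-Hochberg adjusted p under 0.05 over 1174 features, 28.6% of features passed, 12.0% higher and 16.6% lower, so 1 of 9 is below the share of the whole array. The split was 141 higher and 195 lower, but 20 and 965 without centring, and 155 and 125 with each array centred on its probes of highest dye term (the upper quartile), a setting added after seeing the data. The other 8 genes lay between -0.18 and 0.12. The median of the 9 ligation terms was -0.07 (-0.067), against -0.01 (-0.013) over all features.

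**Figure D1:**
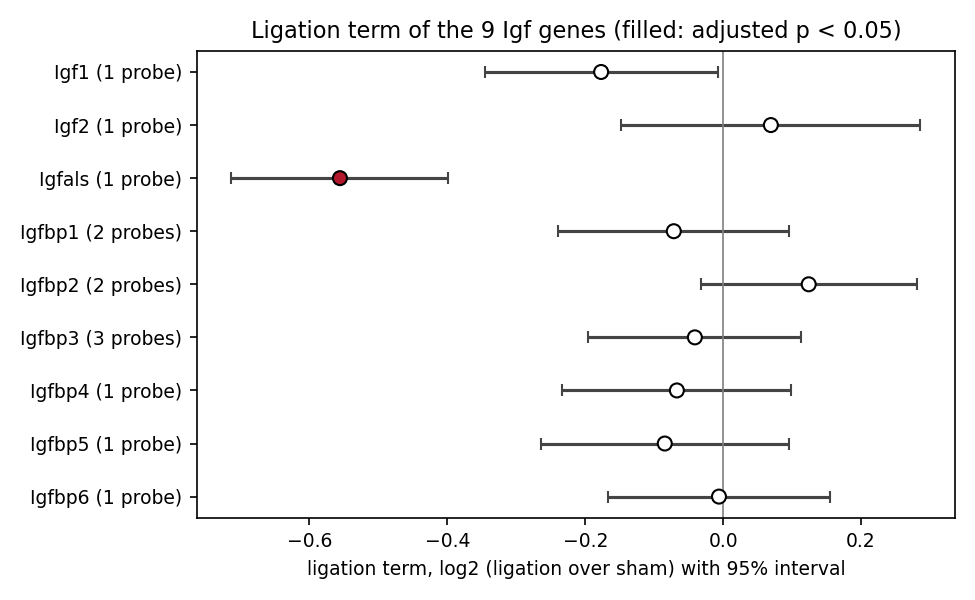
Ligation term (log2 of ligation over sham, x axis) of each Igf gene with its 95% interval from the moderated fit to 4 arrays; the filled point passed adjusted p under 0.05. Igfals, at -0.56, is the filled point, and the interval of Igf1 ends at -0.01 (-0.0080).

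Igfals encodes the leucine-rich carrier subunit that the hepatocyte secretes and that binds the IGF and binding protein pair in blood. It was measured by probe 502. Centred on the array median, Igfals was at -0.05 (-0.055) on array 1, -1.15 on array 2, 0.01 (0.014) on array 3 and -1.03 on array 4. It was thus near the array median on both arrays with ligation in Cy5 and well below it on both with ligation in Cy3, and these orientations did not overlap. As deposited, without centring, Igfals was below 0 on each of the 4 arrays, at -1.31, -0.73, -0.94 and -0.77. The ligation term was -0.56 ± 0.07 (SE, 4 arrays), which is 1.47-fold lower in the ligated pool, with a 95% interval from -0.71 to -0.40 and limma adjusted p = 7.51e-05. Of 1174 features, 69 (5.88%) had a lower ligation term, and read as Cy5 over Cy3, 297 (25.3%) had a higher value than Igfals.

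The call of Igfals held without each array in turn (-0.59 to -0.52), without centring (-0.94, adjusted p = 1.37e-05) and with quantile normalization (-0.47, adjusted p = 0.00104). Without array 2 or array 4, however, the fit gave every Igf gene the same SE, 0.11. Those calls thus rest on a variance pooled over genes and not on the spread of Igfals itself. Its dye term was 0.54 ± 0.07 (limma adjusted p = 2.34e-05), so that under the Cy5 over Cy3 reading Igfals would be higher in the ligated pool with median centring. In that reading it was at -0.19 without centring (adjusted p = 0.0906) and at -0.20 with centring on the probes of highest dye term (adjusted p = 0.0751), so its direction turned and it was not called. The call also needed the variance shared across genes: without moderation the adjusted p was 0.125, and 0 of 1174 features passed (292 at an unadjusted p under 0.05). Without the dye term the adjusted p was 0.919, again with 0 features called (74 unadjusted).

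The promoter of Igfals is shown because it is the member that passed. The 250 bases before its start in the RefSeq promoter table (GRCr8, chr10:14403600-14403849, plus strand) were searched on both strands for 7 motifs, with matches in capitals. No matches overlapped. The motifs were TTCNNNGAA (the core bound by STAT5), CAAAACA (the core of the insulin response sequence), GTTAAT (a binding element of HNF1), CACGTG (E-box), TTGCNNCAA (C/EBP), GTCANTGAC (the inverted repeat of the bile acid receptor FXR) and TATAAA (bound by the basal transcription machinery). No capitals appear in the Igfals window, so none of these letters was found there.
Igfals: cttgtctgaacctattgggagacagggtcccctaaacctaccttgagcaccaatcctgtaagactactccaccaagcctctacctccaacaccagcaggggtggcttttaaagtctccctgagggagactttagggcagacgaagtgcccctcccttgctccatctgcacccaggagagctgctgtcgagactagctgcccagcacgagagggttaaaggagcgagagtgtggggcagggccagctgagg
Across 33469 promoters of the same length, the STAT5 core was present in 7.67% and the FXR repeat in 0.388%. All 9 Igf genes had an entry, 10 windows in all, and neither motif was in any of them. Sequence farther from the start or within the genes was not searched, so sites there would be missed.

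**Figure D2:**
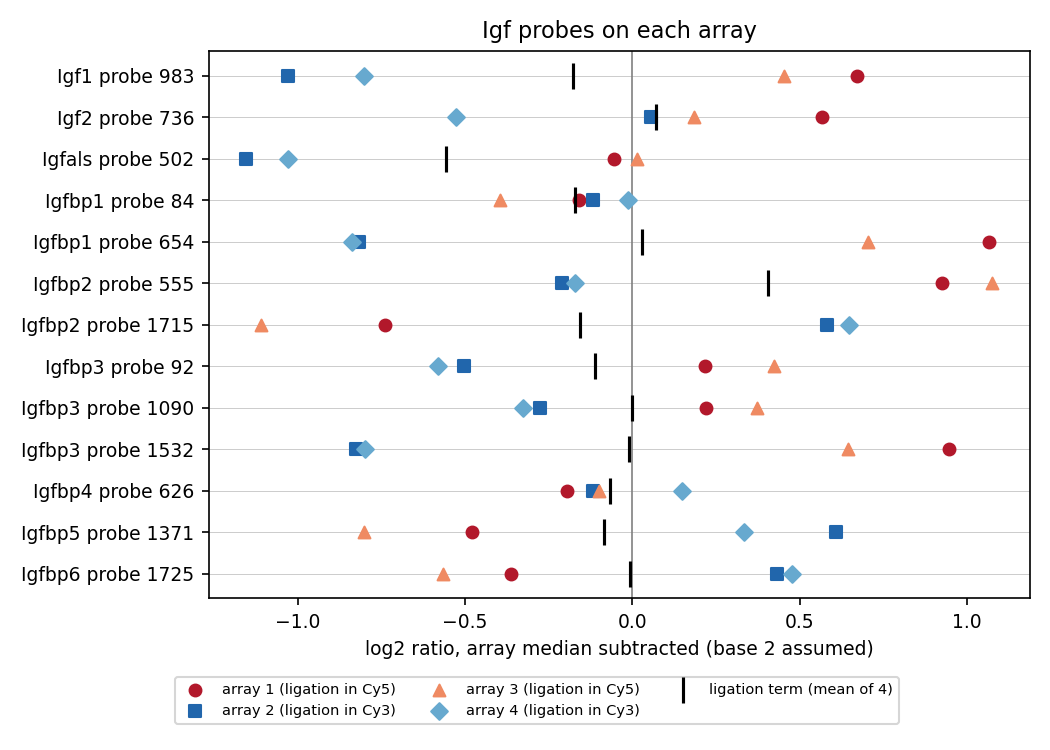
Log2 ratio with the array median subtracted (x axis) of each of the 13 Igf probes on each of 4 arrays; red and orange mark ligation in Cy5, blue tones ligation in Cy3, and the black bar is the mean. The highest array of Igfals is at 0.01 (0.014), and probe 84 of Igfbp1 is the 1 probe below 0 on all 4 arrays.

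Of the ligands, Igf1 did not pass the test. Igf1, the main growth factor of the axis after birth, was at 0.67 on array 1, -1.03 on array 2, 0.45 on array 3 and -0.80 on array 4. The Cy5 arrays were high and the Cy3 arrays low, with no overlap. Its ligation term was -0.18 ± 0.08 (SE, 4 arrays), with a 95% interval from -0.35 to -0.01 (-0.0080) and limma adjusted p = 0.116, and its dye term, 0.74 ± 0.08, was the highest among the 9 genes. The deposited values of Igf1 hardly varied, at -0.59, -0.60, -0.50 and -0.54. Without centring its ligation term was therefore -0.56 (adjusted p = 2.73e-04), a value that includes the mean shift of -0.38 of the array medians.

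Igf2, a growth factor of fetal tissues, was at 0.57, 0.06 (0.055), 0.18 and -0.53 on arrays 1 to 4. Only array 4 was below the median, and the arrays of each orientation were far apart. Its ligation term was 0.07 ± 0.10 (SE, 4 arrays; limma adjusted p = 0.701), the widest error among the 9 genes, and it was -0.08 (-0.076) without array 2 and 0.21 without array 4.

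Igfbp1, Igfbp2 and Igfbp3 had more than 1 probe. The probes of Igfbp2 differed most, and the gaps of Igfbp1 (0.20) and Igfbp3 (0.11) were larger than those of 61.2% and 43.5% of genes with several probes. Igfbp1, the binding protein that insulin represses, had probe 84 at -0.16, -0.12, -0.40 and -0.01 (-0.012) on arrays 1 to 4. Its probe 654 was at 1.06, -0.82, 0.70 and -0.84. Probe 84 was below the median on every array with little gap between orientations, whereas probe 654 was high in Cy5 and low in Cy3. The ligation terms were -0.17 ± 0.08 and 0.03 ± 0.09 (0.028 ± 0.085), with limma adjusted p = 0.150 and 0.892 over 1648 single probes, of which 27.9% passed. Averaged, Igfbp1 was at -0.07 ± 0.08 (SE, 4 arrays; limma adjusted p = 0.583).

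The Igfbp1 promoter (GRCr8, chr14:86261027-86261276, plus strand) is shown as the member whose insulin control is best known, with the matches to the motifs above in capitals.
Igfbp1: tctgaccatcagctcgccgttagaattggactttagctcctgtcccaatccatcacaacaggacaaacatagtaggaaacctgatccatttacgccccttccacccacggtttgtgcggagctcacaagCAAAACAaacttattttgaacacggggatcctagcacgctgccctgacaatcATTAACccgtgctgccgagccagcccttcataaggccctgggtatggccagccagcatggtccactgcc
The CAAAACA match ends 115 bases before the start, and the HNF1 match, on the other strand, ends 64 bases before it. The former motif was in 5.46% of all promoters and in 2 of the 10 Igf windows, the other being that of Igf1. The HNF1 element was in 6.45% of all promoters and in no other Igf window. Among the Igf windows the E-box was found in Igfbp2 alone and TATAAA in Igfbp4 alone, against 5.59% and 12.9% of all promoters, and the C/EBP core, present in 1.75%, in none.

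Igfbp2, a binding protein of liver that is raised by fasting and low insulin, had the widest disagreement. Its probe 555 was at 0.92, -0.21, 1.08 and -0.17 on arrays 1 to 4. Its probe 1715 was at -0.74, 0.58, -1.11 and 0.65. The probes had opposite dye patterns, so probe 555 exceeded probe 1715 by 1.66 and 2.19 on the Cy5 arrays and fell below it on the Cy3 arrays (differences of -0.79 and -0.82). Probe 555 was higher in the ligated pool in the test of single probes, at 0.40 ± 0.08 (SE, 4 arrays; limma adjusted p = 0.00134), where 11.8% of probes were called higher and 16.1% lower. Without centring it was at 0.02 (0.022) and not called (adjusted p = 0.838). Probe 1715 was at -0.16 ± 0.09 (limma adjusted p = 0.224), and it was called lower with quantile normalization (-0.31, adjusted p = 0.0263) and without array 1 (-0.25, adjusted p = 0.0376). The gap of 0.56 between their ligation terms was larger than that of 90.9% of the 340 genes with more than 1 probe, for which the median gap was 0.13. Averaged, Igfbp2 was at 0.12 ± 0.07 (SE, 4 arrays; limma adjusted p = 0.247), and this mean hides probes of opposite sign.

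Igfbp3, the main carrier of IGF1 in the ternary complex with the product of Igfals, did not pass in any of its 3 probes. Their ligation terms were -0.11 for probe 92, -0.0024 for probe 1090 and -0.0095 for probe 1532, each ± 0.08. Averaged over probes, Igfbp3 was at 0.46 on array 1, -0.53 on array 2, 0.48 on array 3 and -0.57 on array 4. The arrays of each orientation lay close together on either side of the median. The gene's ligation term was -0.04 ± 0.07 (-0.041 ± 0.071; SE, 4 arrays), with a 95% interval from -0.20 to 0.11 and limma adjusted p = 0.761. The interval covers changes of either sign and does not overlap that of Igfals.

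The remaining binding proteins had 1 probe each and did not pass. Igfbp4, which restrains IGF action in tissues until a protease cuts it, was at -0.20, -0.12, -0.10 and 0.15 on arrays 1 to 4, with a ligation term of -0.07 ± 0.08 (SE, 4 arrays; limma adjusted p = 0.610). Its arrays overlapped between orientations and lay close to the median. Igfbp5, the other binding protein that can join the ternary complex, was at -0.48, 0.61, -0.80 and 0.33, with a ligation term of -0.08 ± 0.08 (-0.085; limma adjusted p = 0.543). Igfbp6, which prefers IGF2, was at -0.36, 0.43, -0.57 and 0.48, with a ligation term of -0.0060 ± 0.07 (limma adjusted p = 0.973). Igfbp5 and Igfbp6 were low on both Cy5 arrays and high on both Cy3 arrays, the reverse of Igf1, Igfbp3 and probe 654 of Igfbp1.

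**Figure D3:**
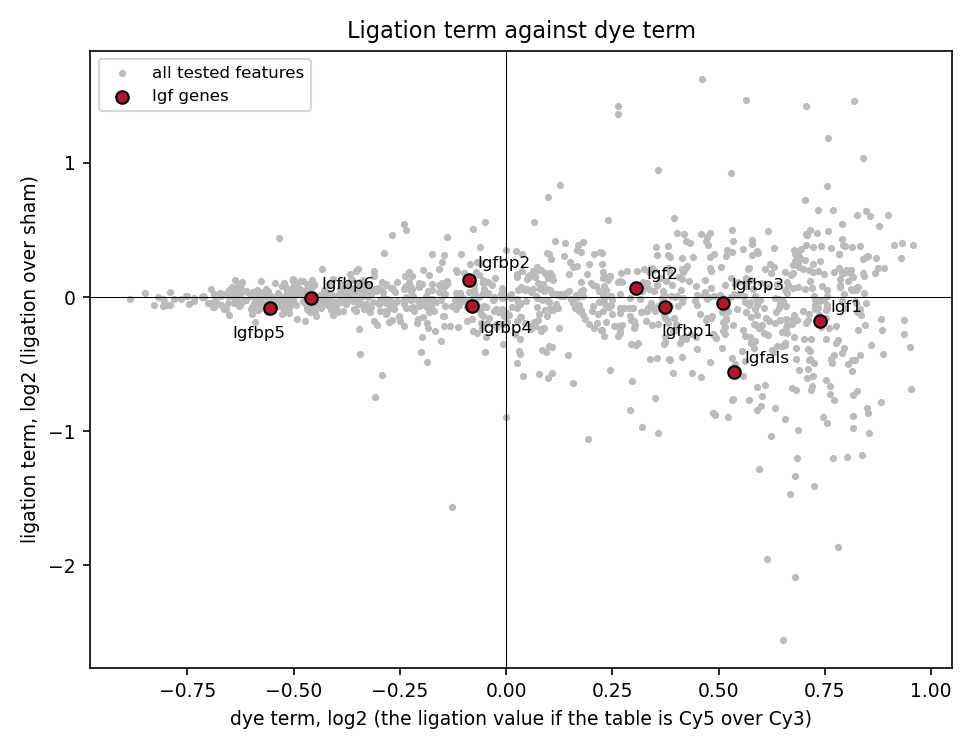
Ligation term (y axis, log2) against dye term (x axis, log2) for 1174 features in grey and the 9 Igf genes in red. Features with a low dye term lie close to a ligation term of 0, where Igfbp5 and Igfbp6 sit, and the scatter widens to the right, where Igf1, Igfals and Igfbp3 sit.

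The dye term separated the members more than the ligation term did. It was above 0 for Igf1 (0.74), Igfals (0.54), Igfbp3 (0.51), Igfbp1 (0.37) and Igf2 (0.31), and below 0 for Igfbp5 (-0.56) and Igfbp6 (-0.46), all 7 with limma adjusted p under 0.05, where 78.8% of features passed, 45.4% above 0 and 33.4% below. Igfbp4 (-0.08, adjusted p = 0.343) and Igfbp2 (-0.09, adjusted p = 0.285) did not pass. The zero of the dye term is set by the array medians. Without centring it was 0.01 (0.014) for Igf1 and below 0 for the other 8, down to -1.28 for Igfbp5. Calls on ligation followed the dye term across the array: 1.70% of the 294 features in its lowest quartile were called, against 19.5%, 40.3% and 53.1% in the next quartiles. The median size of the ligation term rose from 0.04 (0.044) to 0.26 over the same quartiles. Igfbp5 and Igfbp6 lay in the lowest quartile, as did probe 1715 of Igfbp2 among single probes, while Igf1 and probe 555 of Igfbp2 lay in the highest. Igfals lay in the quartile where 40.3% were called. A ligation term near 0 for Igfbp5 and Igfbp6 thus came from a range of the array in which no feature reached a size of 0.5, and what set the dye term was not tested. The 288 unnamed spots taken as controls had a median dye term of -0.52, between those of Igfbp6 and Igfbp5, and probe 1715 lay lower (-0.77). Without intensities, whether these probes measured their transcripts above background is unknown.

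Differences between members on the same array do not depend on a zero shared by the whole array. Igfals was below Igf1 on 4 of 4 arrays, by a mean log2 ratio of -0.38 ± 0.27 (SD, 4 arrays), and below Igfbp3 on 4 of 4 arrays, by -0.51 ± 0.07. It was also below Igf2 (-0.63 ± 0.43) and Igfbp1 (-0.48 ± 0.24) on 4 of 4 arrays. Each of these 4 comparisons gave the smallest 2-sided p of an exact sign-flip permutation test on 4 arrays, p = 0.125, so the design cannot reach 0.05 this way. The difference from Igfbp3 was -0.52, -0.62, -0.47 and -0.46 on arrays 1 to 4. With each print block centred on its own median, which moves members of different blocks apart, it was -0.44 ± 0.23, that from Igf1 -0.36 ± 0.11, that from Igf2 -0.47 ± 0.48 and that from Igfbp1 -0.49 ± 0.29, each still on 4 of 4 arrays. In the Cy5 over Cy3 reading the mean differences were -0.20 from Igf1, 0.02 (0.024) from Igfbp3, 0.23 from Igf2 and 0.16 from Igfbp1, so Igfals was then below Igf1 and above the other three. Centred on array medians, Igfals was below Igfbp2 on 3 arrays and below Igfbp4, Igfbp5 and Igfbp6 on 2 of 4, these last being the Cy3 arrays. After Benjamini-Hochberg adjustment none of the 8 comparisons could pass.

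**Figure D4:**
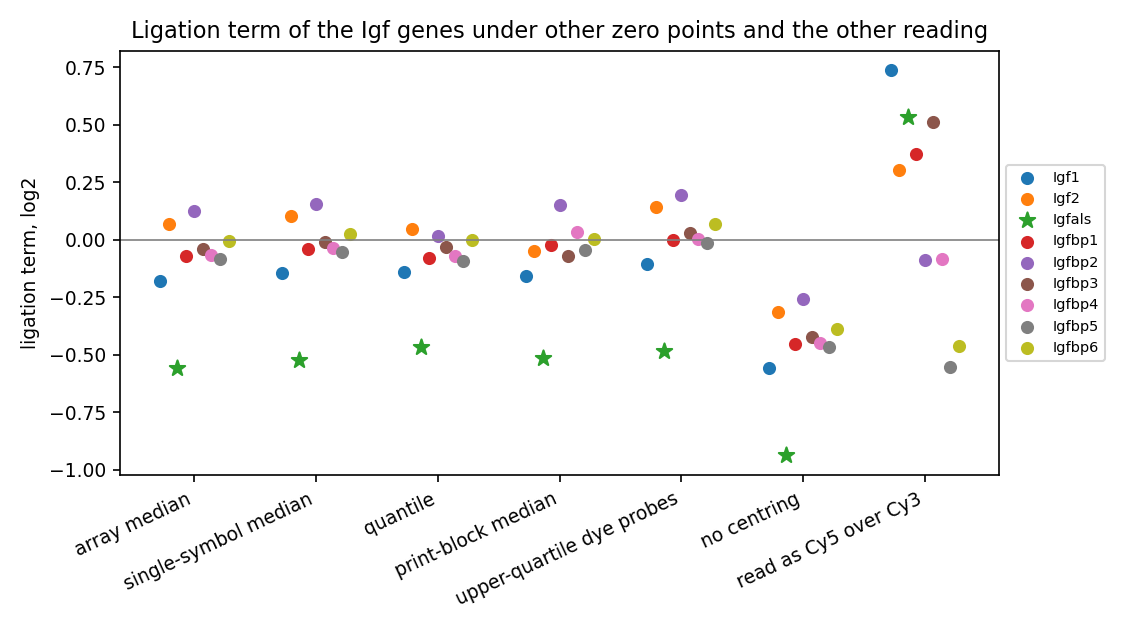
Ligation term (y axis, log2) of each Igf gene under the array median, under 4 other ways of setting the zero or scale, without centring, and read as Cy5 over Cy3 (x axis); the star is Igfals. Igfals lies between -0.56 and -0.47 in the first 5 settings, at -0.94 without centring and at 0.54 in the other reading.

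Upstream of the axis lie the growth hormone receptor and its signalling genes. Of the 8 measured members of a list of 32 genes of growth hormone signalling and its liver targets, 3 were higher, 2 lower and 3 (Jak2, Stat3 and Socs1) did not pass, where 28.6% of all features passed, with a median of 0.01 (0.015) against -0.01 (-0.013) over all features. Read as Cy5 over Cy3 the count was 5 higher and 0 lower, where 78.8% of features passed. In that reading Stat5b (0.29) and Egfr (0.37) were called higher, and Ghr (-0.18) was not called. Without centring the count was 0 higher and 5 lower, where 20 of 1174 features were higher and 965 lower. Stat5b, the transcription factor through which growth hormone induces Igf1 and Igfals, was at 0.11, -0.49, -0.23 and -0.80 on arrays 1 to 4. It was below the median on 3 of 4 arrays, with a ligation term of -0.35 ± 0.08 (SE; limma adjusted p = 0.0070). It no longer passed once array 3 (-0.27, adjusted p = 0.0736) was left out, nor once array 4 was (-0.27, adjusted p = 0.0743). Ghr, the growth hormone receptor, was at -0.14, 0.70, 0.42 and 0.29, above the median on 3 of 4 arrays. Its ligation term was 0.32 ± 0.10 (SE; limma adjusted p = 0.0296), and it no longer passed without array 2 (0.22, adjusted p = 0.188), array 3 (0.18, adjusted p = 0.263), without centring (-0.06, adjusted p = 0.674), after quantile normalization (0.0520), with print-block centring (0.24, adjusted p = 0.0645) and with centring on the probes of highest dye term (0.39, adjusted p = 0.0978). That last setting also ended the calls of Stat5b (-0.28, adjusted p = 0.0700) and Egfr (-0.22, adjusted p = 0.114).

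Among the other members of that list, the protease inhibitor Serpina3n, a target of growth hormone and of inflammation, was higher at 0.35 ± 0.08 (limma adjusted p = 0.00428). The female-predominant Cyp2c12 was higher at 0.34 ± 0.07, although related P450 transcripts can bind its probes. Neither was called without centring (-0.03 (-0.032) and -0.05 (-0.046)). The epidermal growth factor receptor Egfr, whose liver expression growth hormone supports, was lower at -0.30 ± 0.08 (adjusted p = 0.00947), but it did not pass when array 3 (-0.25, adjusted p = 0.0560) or array 4 (-0.25, adjusted p = 0.119) was left out.

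Downstream lies insulin and IGF receptor signalling. Where 28.6% of all features passed by limma, 0 of its 13 measured genes did (50 listed, range -0.21 to 0.15, median -0.0024). At an unadjusted p under 0.05, 1 did, the adaptor protein Ywhaz (-0.21, adjusted p = 0.105). Irs1, the docking protein of both receptors, was at -0.08 ± 0.08 (-0.083; adjusted p = 0.511). Read as Cy5 over Cy3, 4 of the 13 were called higher and 5 lower, where 78.8% of all features passed. Without centring all 13 were called lower, where 965 of 1174 features were. Without array 1, Ywhaz alone was called, lower. Of 4 measured partners and proteases of the axis (29 listed), 2 were higher and 1 lower, where 28.6% of all features passed. In the Cy5 over Cy3 reading 1 was higher and 2 lower, and without centring 0 were higher and 2 lower. Vitronectin (Vtn), which binds IGF2 and IGFBP5 in the matrix, was lower at -0.47 ± 0.09 (limma adjusted p = 0.00147). Read as Cy5 over Cy3, Vtn was called higher, at 0.82. Ghr and the protease inhibitor Serpina1 (0.20 ± 0.07, adjusted p = 0.0484, not called when any 1 array was left out) were higher.

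Of 9 measured liver transcription factors that bear on the axis, 3 were lower, 3 higher and 3 did not pass (median -0.03, -0.027), where 28.6% of all features passed. In the Cy5 over Cy3 reading, where 78.8% of all features passed, 6 were higher and 0 lower. Stat5b (0.29) and Rxra (0.54) were then higher, and Nr1h4 (0.16) was not called. Without centring 2 were higher and 5 lower, where 20 of 1174 features were higher and 965 lower. The lower ones were Stat5b, the FXR gene Nr1h4 (-0.64 ± 0.09) and its partner receptor Rxra (-0.50 ± 0.07). The higher ones were the repressor Nr0b2 (0.65 ± 0.09), the NF-kappa-B subunit Nfkb2 (0.83 ± 0.08) and Cebpd (0.30 ± 0.07), a factor of the acute phase. Their limma adjusted p ran from 5.09e-06 for Nfkb2 to 0.0070 for Stat5b. Cebpd was not called without centring (-0.09, -0.087) or without array 4 (0.29, adjusted p = 0.0587).

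The Igf genes of the hepatocyte can be set beside its other markers and secreted plasma proteins. Of 12 measured hepatocyte markers, 5 were lower, 5 higher and 2 did not pass (median -0.06, -0.061), where 28.6% of all features passed. The lower ones were Cyp1a2 (-1.86 ± 0.08), Fah (-0.68 ± 0.09), Apoc1 (-0.50 ± 0.08), Vtn and Cyp2e1 (-0.37 ± 0.07). The higher ones, Apoa1, Tf, Fgg, Ttr and Serpina1, reached 0.38. With the median over probes Cyp2e1 did not pass (-0.21, limma adjusted p = 0.0546). Of 17 secreted plasma proteins 5 were lower, 7 higher and 5 did not pass (median 0.01, 0.011), against the same 28.6%. Read as Cy5 over Cy3, where 78.8% of all features passed, 9 hepatocyte markers were higher and 1 lower. Cyp1a2 (0.78) and Fah (0.95) were then higher, and Cyp2e1 (0.11) was not called. In the same reading 14 plasma proteins were higher, with Azgp1 at 0.76, and 1 was lower, Serpina1 (-0.19). Without centring, 0 were higher in either list, with 7 markers and 10 plasma proteins lower. Over all 1174 features, 20 were then higher and 965 lower. The lower plasma proteins were Azgp1 (-0.72 ± 0.08), Apoc1, Vtn, A2m and Pon1, and the higher ones reached 0.42 ± 0.08 for complement C3, with Itih3, Apoa1, Tf, Fgg, Ttr and Serpina1 between 0.20 and 0.38. Of these 12, A2m did not pass when array 3 (-0.24, adjusted p = 0.110) or array 4 was left out, Pon1 without array 2, 3 or 4, Fgg and Ttr without array 1 (0.26 and 0.20) or array 4, Ttr also without array 2, and Serpina1 when any 1 array was left out. Some calls were lost with little change in value. Serpina1 was at 0.20 or 0.21 in each of these fits, and Ttr was at 0.26 without array 2 and 0.25 without array 4. With centring on the probes of highest dye term A2m, Pon1 and Serpina1 did not pass, and with print-block centring A2m and Ttr did not. None of the 7 higher ones was called without centring. Hepatocyte markers also lay high on the dye term, with 10 of 12 above 0 and a median of 0.66.

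Markers of other liver cells were few on the array. Of 5 markers of Kupffer cells and leukocytes, 3 were lower, namely Tnf (-0.57 ± 0.08), Ccl5 (-0.33 ± 0.07) and Cd53 (-0.27 ± 0.08), with ligation terms from -0.57 to -0.04 (-0.036), where 16.6% of all features were lower. In the other reading of the ratio, 4 of the 5 were higher and 1 lower, with Tnf at 0.44, Ccl5 at 0.37 and Cd53 at 0.27. In that reading 78.8% of all features passed, 45.4% higher and 33.4% lower. Among 7 endothelial markers Ece1 (-1.18 ± 0.08) and Kdr (-0.33 ± 0.09) were lower. Of 4 stellate cell markers, Timp1 (0.35 ± 0.08) was higher and Col1a1 (-0.23 ± 0.07) lower. None of 4 cholangiocyte markers and not the 1 blood cell marker passed. Of these, Cd24, Ggt1, Spp1 and Pf4 lay in the lowest quartile of the dye term, where 1.70% of features were called. Read as Cy5 over Cy3, where 78.8% of all features passed, 1 cholangiocyte marker was higher and 3 lower, and Pf4, of blood cells, was lower. In that reading 2 endothelial markers were higher, with Ece1 at 0.84, and 3 lower. Without centring 7 endothelial, 3 stellate and 4 cholangiocyte markers were lower and none higher, where 965 of 1174 features were lower and 20 higher. Igfbp3, which such non-parenchymal cells make, did not pass. Calls were lost without array 2 for Ccl5 (-0.28, adjusted p = 0.0574) and Cd53 (-0.27, adjusted p = 0.0726), without array 3 (-0.20) or array 4 (-0.26) for Cd53, without array 1 (-0.26) or array 2 (-0.20) for Kdr, and without array 2, 3 or 4 for Col1a1. Ccl5, Cd53, Kdr and Col1a1 did not pass with centring on the probes of highest dye term either. Their part in the values of the Igf genes was not tested.

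The genes whose 4 array values were most like those of Igfals, by root mean square difference of centred log2 ratios, were Creld2 (0.07, 0.068), the organic anion carrier Slco2b1 (0.09, 0.086), the glutaryl-CoA dehydrogenase Gcdh (0.09, 0.095), Rxra (0.11) and the nucleoside carrier Slc28a2 (0.14). The median difference over the other named genes was 0.82. The ligation terms of these 5 genes lay between -0.60 and -0.50, and their dye terms between 0.46 and 0.56. Closeness over 4 arrays was the rule that chose them, so these values are a description.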

How the data were processed

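Total RNA of 3 rats per group was pooled and poly(A) RNA hybridised to 2-colour cDNA arrays, per the labels. The authors deposited 1 log ratio per probe and array, taken here as log2. Its base, direction, background correction and normalization are not stated in those sources. No intensity was used, so signal over background is unknown and the 4 arrays limit precision.

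The median of the 1936 values of an array was subtracted from each of them, and probes of the same single symbol were averaged. The 288 spots at positions unnamed in all 16 print blocks were taken as controls and left out. That gave 958 genes and 216 other probes. limma 3.58.1 in R 4.3.3 fitted a ligation and a dye term to the 4 arrays, with eBayes moderation (prior SD 0.155) and Benjamini-Hochberg adjustment, called under 0.05. The fit was also run on simulated data drawn from its own variance model. That simulation held no variation between animals and no error of the zero, so it cannot speak to either. Single probes were fitted likewise, 1648 in all.

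Promoter sequences come from RefSeq, build GRCr8. The members and gene lists were chosen with earlier results of these data known. Named genes were all Igf genes, the called members of each list, some preset regulators, and the 5 genes nearest to Igfals in pattern. The plan had been up to 6 called members per list, which the hepatocyte markers and plasma proteins exceeded. Some list members that did not pass were named as well. Insr and Alb, preset for naming, had no named probe in the tested set. Ywhaz was chosen after its value was seen.

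The alternatives covered centring, quantile normalization, the direction and base of the ratio, the dye term, moderation, averaging of probes, control spots and each array left out. Centring by print block and on probes of high dye term were added after seeing the data.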

Additional observations from a re-analysis of the deposited data

How the results depend on the processing

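Igfals kept its direction and its call in 13 of 16 alternatives, from -0.94 to -0.47 (natural logarithms at -0.80). The exceptions were the Cy5 over Cy3 reading (0.54), no dye term (-0.56, adjusted p = 0.919) and no moderation (-0.56, adjusted p = 0.125). With either of the last settings 0 features were called, against 336 with moderation and dye term. Not all of the 13 were free to differ. Natural logarithms only rescale the values, and the median over probes leaves a gene with 1 probe as it was. Robust moderation and keeping the control spots also left the value of Igfals at -0.56 and could change only its error and adjusted p. Without centring 985 features were called, and 925 in the Cy5 over Cy3 reading. Without centring the other 8 genes were all called lower: Igf1 at -0.56, Igf2 at -0.31, Igfbp1 at -0.45, Igfbp2 at -0.26, Igfbp3 at -0.42, Igfbp4 at -0.45, Igfbp5 at -0.47 and Igfbp6 at -0.39, with Igfbp1 probe 654 at -0.35. Subtracting no median lowers every value by construction.

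Read as Cy5 over Cy3, Igf1 was at 0.74, Igf2 at 0.31, Igfbp1 at 0.37, Igfbp3 at 0.51 (probes 92, 1090 and 1532 at 0.43, 0.30 (0.299) and 0.80 (0.804)), Igfbp5 at -0.56 and Igfbp6 at -0.46, all called. Igfbp2 was at -0.09 (-0.087), not called.

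Values near 0 changed sign without being called. With arrays centred on the probes of highest dye term, Igfbp1 was at 0.0015, Igfbp3 at 0.03 (0.032; probes 1090 and 1532 at 0.07 (0.071) and 0.06 (0.064)), Igfbp4 at 0.0060 and Igfbp6 at 0.07 (0.067). With print-block centring, Igf2 was at -0.05 (-0.047), Igfbp4 at 0.03 (0.033), Igfbp6 at 0.0060 and probe 1090 at 0.02 (0.020). With single-symbol centring, Igfbp6 was at 0.03 (0.027), probe 1090 at 0.03 (0.031) and probe 1532 at 0.02 (0.024). With quantile normalization, Igfbp6 was at 0.0015 and probe 1090 at 0.0086. Leaving out 1 array gave Igf2 from -0.08 (-0.076) to 0.21, Igfbp1 from -0.15 to 0.0034 and Igfbp6 from -0.06 (-0.057) to 0.04 (0.045). It gave probe 654 from -0.062 to 0.12, probe 1090 from -0.041 to 0.036 and probe 1532 from -0.085 to 0.066. The cause was not tested. A filter on dim probes was not run, since no intensity was used, and the unknown signal over background limits every value. No paired analysis was possible because the labels give 1 group of arrays, and each log ratio already sets both pools of an array against each other.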
